A study of Mus musculus with 8 samples.

Results

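The genes described here encode the proteins of the large (60S) subunit of the cytosolic ribosome. They were chosen by a rule on annotation, as the protein-coding entries of the deposited gene table whose symbols begin with Rpl and a digit or are Rplp0, Rplp1 or Rplp2, which gave 59 of 54532 entries. The 60S subunit joins the small (40S) subunit on an mRNA, holds the peptidyl transferase centre that links amino acids, and passes the new chain out through a tunnel. Its proteins are made in step with each other, largely because their mRNAs start with a run of pyrimidines (a terminal oligopyrimidine, or TOP, start) that places their translation under mTOR and Larp1. Neurons depend on this supply for local protein synthesis, and free Rpl5 and Rpl11 are known to hold back Mdm2 and so raise p53 when ribosome assembly is disturbed.

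Male C57BL/6 mice supplied the tissue, the substantia nigra of the midbrain, where dopamine neurons lie. There were 4 groups of 2 libraries each. The control group is labelled as wild type and control, and the vector group received an adeno-associated virus (AAV) with α-synuclein. The AKG group received α-ketoglutarate, which the series title places in the diet. The combined group received the virus and AKG. No group with an empty virus was analysed here, and the labels state no dose, age or promoter. The labels do not say whether the libraries of a group came from separate mice, so the tests measure only the spread between these libraries, which may be technical. In whole tissue, fewer cells of a type and less RNA per cell cannot be told apart.

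The libraries held 16544190 to 19125423 recovered reads. Control library 1 stood apart from the others: its mean Spearman correlation with the other libraries over the tested genes was 0.926, against 0.971 to 0.975 for the other 7. Its summed FPKM of 7 choroid plexus markers was 8927, against 53.9 to 4948 in the other libraries, with Ttr alone at 8778. Its sum over 5 red cell markers was 14.6, against 172 to 444, its sum over 4 ependymal markers 173, against 38.6 to 68.0, and its sum over 5 neuron markers 351, against 492 to 535. The dopamine neuron markers summed to 144 and 141 FPKM in the control libraries and to 56.0 to 81.8 FPKM in the other 6. The part of these differences in the results on ribosomal genes was not tested. Values against control are given with and without control library 1 for the family, its structural roles and the gene lists. Large subunit genes followed library by library are treated the same way. Values of other single genes and of alternative fits include that library unless stated.

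Runs of pyrimidines, the letters of a TOP start, were common near the annotated starts of these genes. RefSeq promoters (build GRCm38.p6) matched 40 of the 59 symbols. A run of at least 8 pyrimidines that begins with C lay on the sense strand within 50 bases of the annotated start in 35 of the 40 (87.5%), against 32.0% of 27025 genes and 76% of 25 small subunit genes. Windows of 30 bases are shown for 8 genes that have the run, in capitals, and for 2 that do not, because several are described below. Capitals cover only the part within 50 bases of the start. The run of Rpl26 goes on upstream of its capitals and lies wholly before the annotated start.
Rpl35, chr2:39005115-39005144, minus strand: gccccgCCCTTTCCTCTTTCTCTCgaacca
Rpl11, chr4:136053357-136053386, minus strand: cggaagtCTCCCTCTCTCTTCCTgttctcc
Rpl4, chr9:64173406-64173435, plus strand: agcgtggCCTTCTCCTCTCCCCgtcatggt
Rpl39, chrX:37085173-37085202, minus strand: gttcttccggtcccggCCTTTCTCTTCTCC
Rpl31, chr1:39367825-39367854, plus strand: tcgccacaCCTCTTCCTCCTCgcctccccg
Rpl26, chr11:68901509-68901538, plus strand: cccaacctCCTCTCCCCTTTCgctccgaga
Rpl36a, chrX:134585673-134585702, plus strand: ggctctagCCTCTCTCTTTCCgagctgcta
Rpl7a, chr2:26910790-26910819, plus strand: caattCCCTCTTCTTTCTTTCTCCagcagc
Rplp0, chr5:115559452-115559481, plus strand: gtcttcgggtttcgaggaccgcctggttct
Rpl24, chr16:55966260-55966289, plus strand: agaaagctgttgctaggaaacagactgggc
The 5 genes with no such run in the window were Rplp0, Rpl23, Rpl7l1, Rpl24 and Rpl10l. Over the whole promoter (250 bases before to 50 after the start, both strands), the ETS core CCGGAA was found in 52.5% of the 40, against 16.7% of all genes. The GC box GGGCGG was found in 67.5%, against 38.2%, and the YY1 letters AAGATGGC in 10% (4 genes), against 3.19%. These are matches of letters in a window, not sites shown to be bound or starts shown to be used.

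Values are the deposited FPKM, fragments per kilobase of gene scaled to library size. Of the 59 genes, 51 averaged 1 FPKM or more and were tested among 13716 genes in all. The other 8 were 4 paralogs, Rpl3l, Rpl10l, Rpl36al and Rpl39l, and 4 entries with pseudogene names, Rpl36a-ps1, Rpl13a-ps1, Rpl9-ps1 and Rpl36-ps4. Rpl3l, the paralog of Rpl3 known from striated muscle, lay between 0 and 0.313 FPKM, and Rpl39l, known from testis, between 0 and 0.391. Rpl36al lay between 0.262 and 1.04 FPKM. Rpl10l, the X-inactivation backup of Rpl10 in the male germ line, was listed at 0 in all 8 libraries, as were 2 of the pseudogene-named entries.

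Among the tested genes the level per kilobase ran over a wide range. Rplp1, an acidic protein of the stalk that recruits elongation factors, had the highest mean at 1267 FPKM. It was followed by Rpl36 (535 FPKM), Rpl41 (372), Rpl8 (342) and Rpl19 (339). The lowest were Rpl24 (2.38 FPKM), Rpl27-ps3 (2.78), Rpl10-ps3 (3.14), Rpl13a (10.6) and Rpl7l1 (14.6). On the same strand, Gm28037 overlaps 47.0% of the exon bases of Rpl24 and Gm45713 35.4% of those of Rpl13a. Both overlapping entries were listed at 0 in all 8 libraries, and what that overlap did to the counts of Rpl24 and Rpl13a was not tested. In all, 40 of the 51 lay at or above 50 FPKM. The deposited length of a gene equals the union of its annotated exons for 56 of the 59, and it was a median of 1.98 times the length of the main transcript. Divided by the main transcript instead, Rpl35a moved from 31.1 to 223, Rpl22 from 37.1 to 228 and Rpl18 from 53.7 to 320, in the same unit. The order of levels on the 2 scales had a Spearman correlation of 0.81 over 50 genes, given as a description, so differences in level between these genes depend on the length used, while comparisons of 1 gene between libraries do not.

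**Figure D1:**
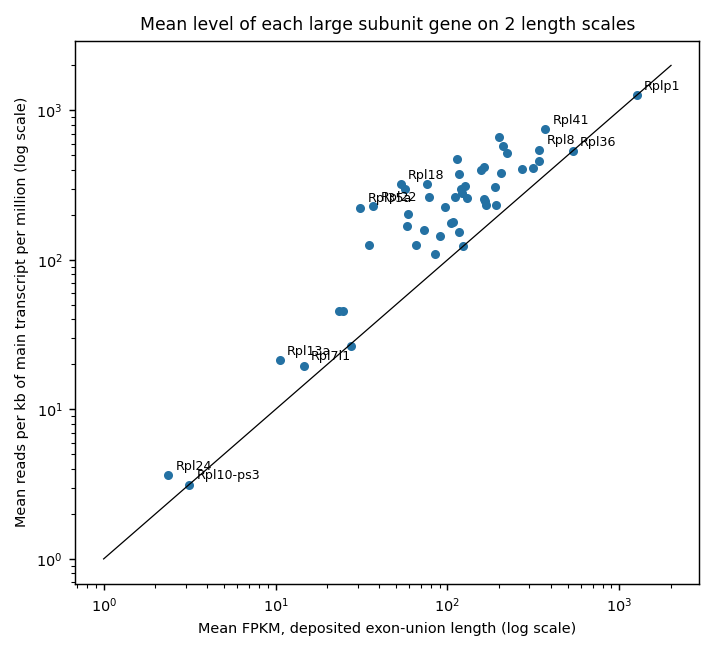
Mean level of each tested large subunit gene over 8 libraries, as FPKM with the deposited length (horizontal, log scale) and as reads per kilobase of main transcript on the same library scale (vertical, log scale); the line marks equal values. Rplp1 lies on the line at 1267, and Rpl35a lies above it at 31.1 and 223.

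The large subunit genes varied together across the libraries. Their summed FPKM was 12894 and 8271 in the control libraries, 7063 and 6321 in the vector libraries, 6199 and 6993 in the AKG libraries and 6282 and 8179 in the combined libraries. Control library 1 was highest and AKG library 1 lowest, and the second combined library lay close to the second control library. Control library 1 held the highest value of 50 of the 51 genes, the exception being Rpl9-ps6, highest in AKG library 2. As a description over 8 libraries, 42 of the 51 genes had a Pearson correlation above 0.9 with the family's median deviation, with a median of 0.976. These were 30 of 51 and 0.935 without control library 1. Libraries of the same group differed too. Control library 1 exceeded library 2 in 51 of 51 genes, by a median of 0.61 on the log2 scale, and combined library 2 exceeded library 1 in 51 of 51, by a median of 0.33. The vector libraries were split, with library 1 higher in 42 genes and library 2 in 9. Of the AKG libraries, library 2 was higher in 46 genes and library 1 in 5.

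**Figure D2:**
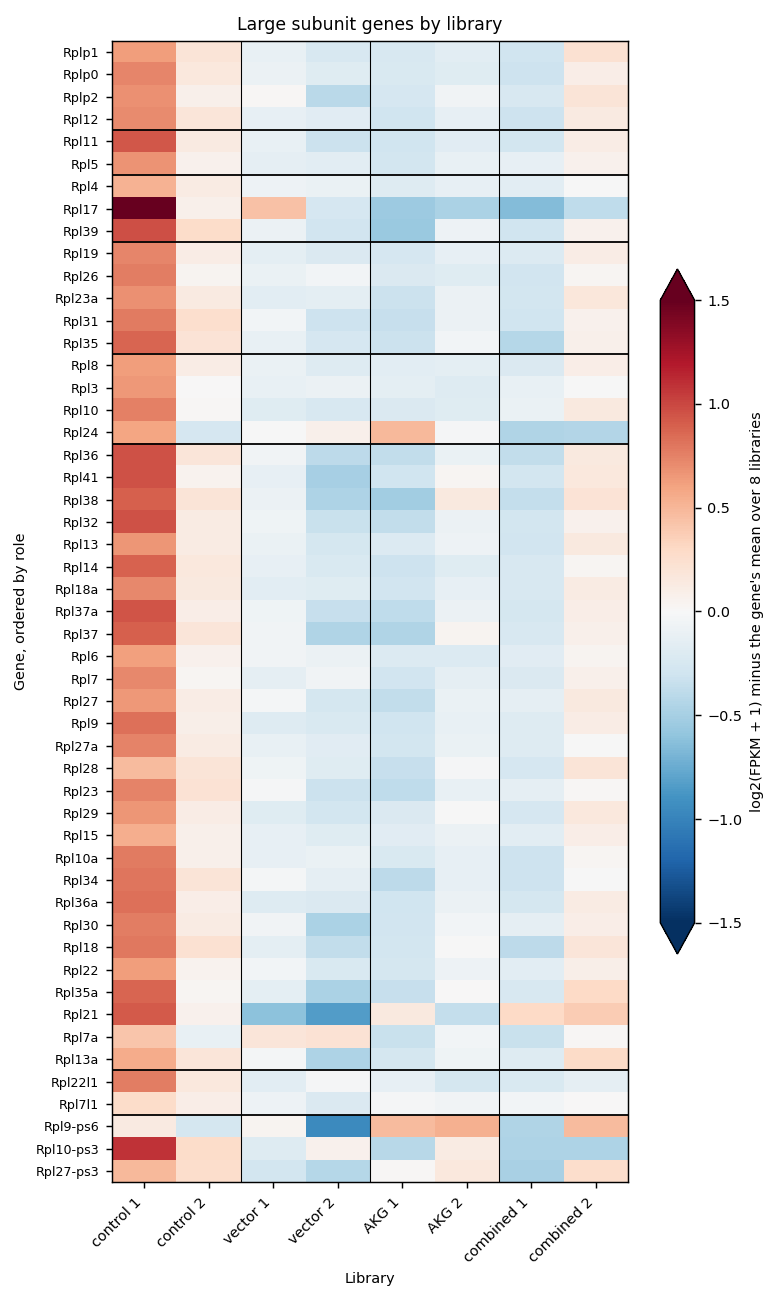
Deviation of each of the 51 tested genes from its own mean over 8 libraries, on the log2(FPKM + 1) scale, with libraries in columns and genes in rows ordered by role (black lines separate the roles). Control library 1 is highest in 50 genes, and Rpl17, Rpl21, Rpl24 and Rpl9-ps6 depart from the common pattern.

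Compared with control, the large subunit genes had lower values in each of the other groups, but none passed the adjusted threshold. In the vector group 50 of 51 had a lower fitted value, with a median log2 difference of -0.60 against -0.01 over all 13716 tested genes. The spread was from -1.22 (Rpl21) to 0.05 (Rpl7a). By limma with Benjamini-Hochberg adjustment, 0 of the 51 were called at 0.05, as were 0% of all genes, and voom, run on recovered reads, called 0 as well. With no adjustment, 41 of the 51 had a lower value at p under 0.05, against 7.54% of all genes, and 0 had a higher value, against 9.27%. Both vector libraries lay below both control libraries in 47 of the 51, against 27.6% of all genes, and above both in 0, against 26.3%. The 4 genes that overlapped were Rpl17, Rpl7a, Rpl24 and Rpl9-ps6. Without control library 1 the median was -0.30, against -0.02 over all tested genes, with 48 of 51 lower. The median was -0.65 without vector library 1 and -0.55 without vector library 2. The count of 41 at an unadjusted p under 0.05 was lower in each of these fits. Each leaves a group with a single library, so its count is not given. Control library 2 was the lower control in all 51 genes, so the same 47 necessarily lay below it alone. Below control library 2 alone lay 40.5% of all genes.

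The AKG group was compared with the same control libraries as the vector group, so the results of the comparisons with control are not independent. There 49 of 51 genes had a lower fitted value, with a median of -0.61 against -0.01 over all tested genes. By limma 0 of the 51 were called, against 0.00729% of all genes (1 gene, the dopamine synthesis enzyme Th, named after its value was seen), and voom called 0 of the 51. With no adjustment, 40 had a lower value at p under 0.05, against 7.19% of all genes, and 0 a higher one, against 10.5%. Both AKG libraries lay below both controls in 47 genes, against 26.4% of all, and above both in 1, Rpl9-ps6, against 26% of all. Without control library 1 the median was -0.30, against -0.01 over all tested genes, with 49 of 51 lower. The median was -0.54 without AKG library 1 and -0.68 without AKG library 2. The count of 40 at an unadjusted p under 0.05 was lower in each of these fits, which leave a group with a single library. Below control library 2 alone, again the lower control in all 51 genes, lay 39.2% of all genes and so the same 47.

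In the combined group, again against the same control libraries, 50 of 51 genes had a lower fitted value, with a median of -0.49 against -0.01. By limma 0 were called, as for 0% of all genes, and voom called 0. With no adjustment, 15 had a lower value at p under 0.05, against 5.19% of all genes, and 0 a higher one, against 8.71%. Both combined libraries lay below both controls in 31 genes, against 20.5% of all, and above both in 0, against 21.3%. Below control library 2 alone, the lower control in all 51 genes, lay 32.4% of all genes and so the same 31. Without control library 1 the median was -0.19, against -0.01 over all tested genes, with 47 of 51 lower. The median was -0.33 without combined library 1 and -0.68 without combined library 2. The count of 15 at an unadjusted p under 0.05 was lower without control library 1 or combined library 1. It was higher without control library 2 or combined library 2. Each of these fits leaves a group with a single library, so its count is not given. A set of 8 genes was left aside after seeing the data: Rpl17, Rpl21, Rpl7a, Rpl13a, Rpl24 and the tested entries with pseudogene names. Rpl23a, with 23.1% of its family reads on pseudogenes, was kept. The other 43 had differences of -0.82 to -0.33 in the vector, -0.94 to -0.22 in the AKG and -0.74 to -0.21 in the combined group. These ranges were -0.48 to -0.10, -0.60 to -0.13 and -0.40 to 0.01 without control library 1.

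Gene length moved with these results. The median deposited length was 1770 bases in the 51 genes and 4070.5 in all tested genes. In each library the deviation of a gene correlated with its length, with a Spearman value over the tested genes of -0.52 and -0.28 in the control libraries and 0.26 and 0.45 in the vector libraries. It was 0.44 and 0.10 in the AKG and 0.47 and -0.17 in the combined libraries. With a smooth trend in length and GC content removed from each library, the medians were -0.40, -0.42 and -0.32 for the vector, AKG and combined groups against control. The part of RNA quality in the length trend was not tested.

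**Figure D3:**
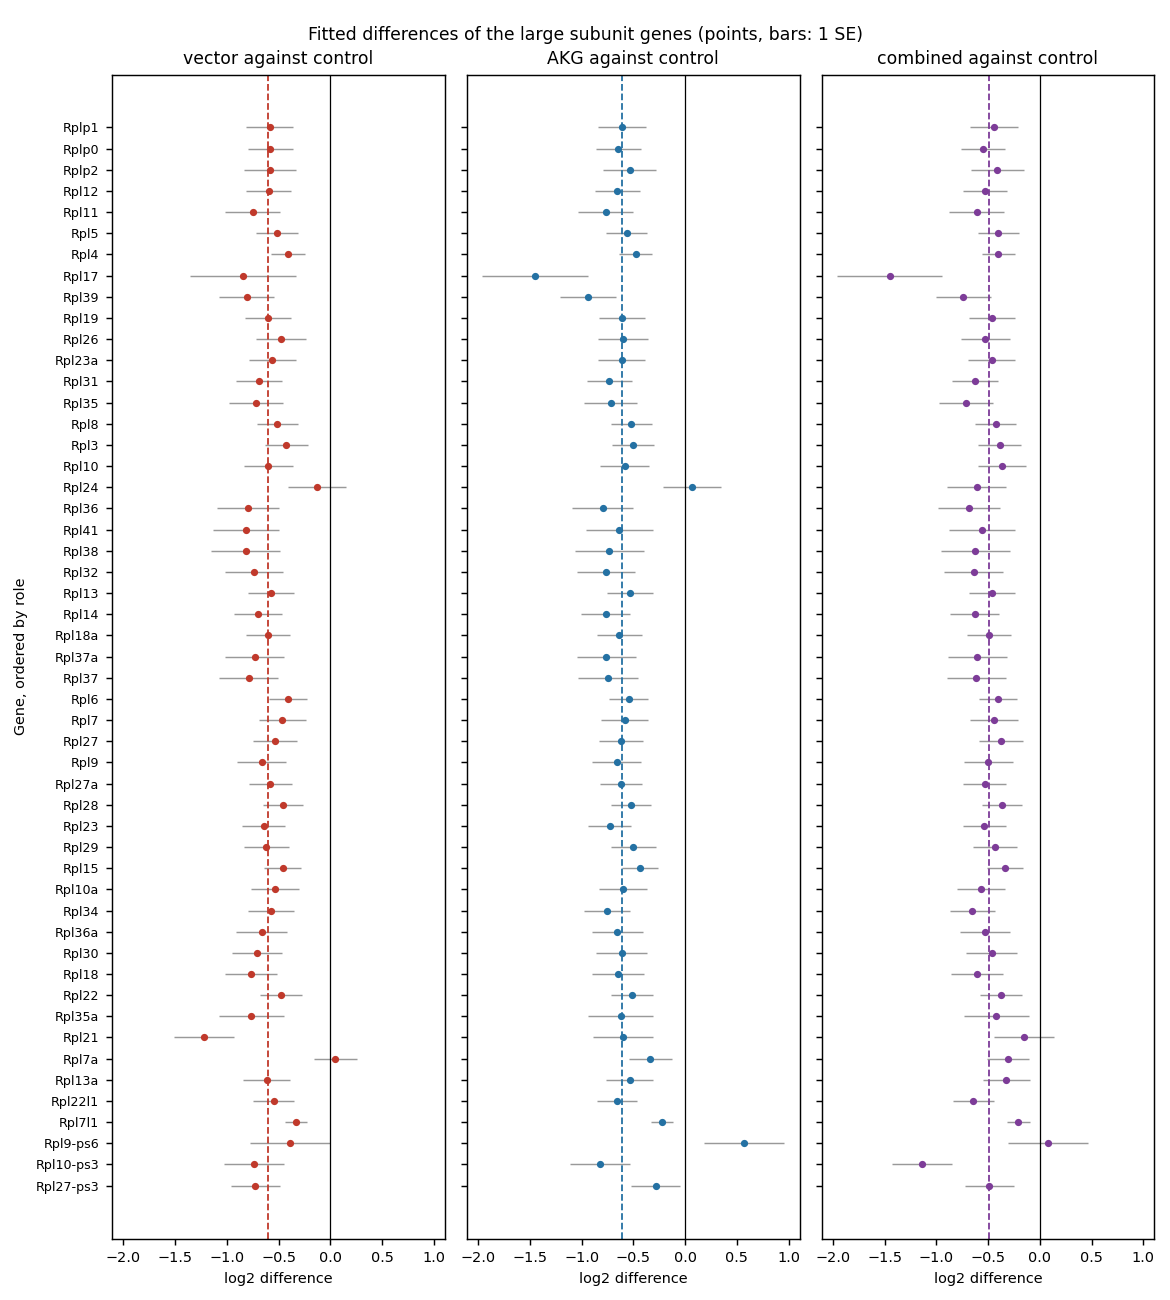
Fitted log2 difference from control of each of the 51 tested genes in the vector, AKG and combined groups (points, with bars of 1 SE; dashed line, median of the genes; solid line, 0). The medians are -0.60, -0.61 and -0.49, and no gene passed an adjusted p of 0.05.

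The stalk proteins, which bind the elongation factors, showed the common pattern. Rplp1 stood at 1913 and 1417 FPKM in control, 1148 and 1046 in vector, 1047 and 1106 in AKG and 1008 and 1451 in combined libraries. The vector and AKG libraries lay below both controls, while combined library 2 lay above control library 2. The log2 difference from control was -0.59 ± 0.23 (SE) in the vector group, -0.61 ± 0.23 in AKG and -0.44 ± 0.23 in combined, with limma adjusted p of 0.294, 0.27 and 0.392. They were -0.37, -0.40 and -0.23 without control library 1. Rplp0, which anchors the stalk, stood at 310 and 208 FPKM in control and at 150 to 200 FPKM in the other 6 libraries. All 6 lay below both controls, with differences of -0.58, -0.65 and -0.55. Over Rplp0, Rplp1, Rplp2 and Rpl12, the medians were -0.58, -0.63 and -0.49 for the vector, AKG and combined groups, and -0.31, -0.37 and -0.25 without control library 1.

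The partners of 5S rRNA, Rpl5 and Rpl11, followed the same order. Rpl11 stood at 213 and 122 FPKM in control, 103 and 88.5 in vector, 90.4 and 98.5 in AKG and 91.9 and 121 in combined libraries. All 6 other libraries lay below the lower control library, and the second combined library lay nearest to it. Its differences were -0.75, -0.77 and -0.61 (SE 0.27), with limma adjusted p of 0.294, 0.27 and 0.358, and -0.35, -0.37 and -0.21 without control library 1. Rpl5 stood at 104 and 67.6 FPKM in control and at 53.2 to 67.4 in the others, with differences of -0.52, -0.56 and -0.40. Over both genes the medians were -0.63, -0.67 and -0.51, or -0.28, -0.32 and -0.16 without control library 1. Fam69a, on the opposite strand, overlaps 24.3% of the exon bases of Rpl5. The p53 response list of 7 genes, read beside these 2 because of their link to Mdm2, had medians of -0.11, -0.12 and -0.14, with 0 genes called and 5 of 7 lower in each comparison. With that library left out they were 0.10, -0.03 and 0.03, with 3, 5 and 2 of 7 lower. Cdkn1a, a p53 target that stops the cell cycle, had differences of -0.24, -0.54 and -0.28. The other way went 2 of the 7 in each comparison, up to 0.36, 0.43 and 0.19. Without control library 1 the 7 genes ran from -0.37 to 0.32, -0.47 to 0.39 and -0.35 to 0.16.

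The wall of the exit tunnel is lined by Rpl4, Rpl17 and Rpl39. The medians over these 3 genes were -0.81, -0.94 and -0.74, which are the values of Rpl39. They were -0.21, -0.59 and -0.40 without control library 1. Rpl39 stood at 181 and 112 FPKM in control, 86.9 and 75.4 in vector, 62.6 and 87.2 in AKG and 74.6 and 96.9 in combined libraries. All 6 libraries lay below both controls. Its differences were -0.81, -0.94 and -0.74 (SE 0.27), with limma adjusted p of 0.294, 0.269 and 0.349, and -0.47, -0.60 and -0.40 without control library 1. Rpl4 stood at 448 and 340 FPKM in control and at 274 to 311 in the others, a smaller difference of -0.41, -0.48 and -0.40 (SE 0.16). Rpl17 stood at 362 and 109 FPKM in control, 141 and 86.4 in vector, 70.5 and 74.1 in AKG and 65.5 and 79.3 in combined libraries. Control library 1 was more than 3 times as high as control library 2, and vector library 1 lay between them. The differences of Rpl17 were -0.85, -1.45 and -1.45, and with control library 1 left out they were 0.01, -0.59 and -0.60.

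The rim of the tunnel exit, where chaperones and the signal recognition particle dock, is formed by Rpl19, Rpl23a, Rpl26, Rpl31 and Rpl35. All 5 had lower fitted values in each comparison with control, with medians of -0.60, -0.61 and -0.53, or -0.29, -0.34 and -0.19 without control library 1. Rpl35 stood at 207 and 130 FPKM in control, 104 and 94.4 in vector, 89.96 and 109 in AKG and 83.4 and 119 in combined libraries. All 6 lay below both controls, and the differences were -0.72, -0.72 and -0.71 (SE 0.26), with limma adjusted p of 0.294, 0.27 and 0.349. All 3 were -0.38 without control library 1. Rpl31 stood at 270 and 187 FPKM in control and at 123 to 164 in the others, with differences of -0.69, -0.73 and -0.63. Rpl19 and Rpl23a had 1 combined library above control library 2. On the opposite strand, Tlcd1 overlaps 59.7% of the exon bases of Rpl23a, Tbc1d8 25.3% of those of Rpl31 and Wdr38 66.2% of those of Rpl35. No source states whether the counting used strand, so reads of such partners cannot be told apart. Tlcd1 stood at 4.61 to 6.12 FPKM, Tbc1d8 at 3.58 to 4.20 and Wdr38 at 0.123 to 0.559, well under the levels of the 3 ribosomal genes.

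Rpl3, Rpl8 and Rpl10 lie near the peptidyl transferase centre, and Rpl24 lies at the face toward the small subunit. Rpl10 and Rpl24 join late, in the cytoplasm. Over these 4 genes the medians were -0.47, -0.51 and -0.41, or -0.16, -0.20 and -0.12 without control library 1. Rpl10 stood at 268 and 160 FPKM in control, 139 and 134 in vector, 136 and 140 in AKG and 147 and 176 in combined libraries. The vector and AKG libraries lay below both controls, while combined library 2 lay above control library 2. The differences were -0.60, -0.59 and -0.36 (SE 0.23), and without control library 1 they were -0.23, -0.21 and 0.0069. Rpl8 stood at 519 and 362 FPKM in control and at 290 to 359 in the others, with differences of -0.51, -0.52 and -0.43. Rpl24 had few reads on its own entry and departed from the rest. It stood at 3.92 and 1.74 FPKM in control, 2.26 and 2.46 in vector, 3.58 and 2.24 in AKG and 1.40 and 1.41 in combined libraries. Its control libraries spanned all other libraries except the combined ones, and its differences were -0.13, 0.07 and -0.61 (SE 0.28), or 0.29, 0.49 and -0.19 without control library 1.

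Of the other large subunit proteins, Rpl36 and Rpl41 had the highest mean FPKM with the deposited length. Rpl36 stood at 988 and 580 FPKM in control, 492 and 388 in vector, 396 and 478 in AKG and 394 and 564 in combined libraries, all 6 below both controls. Its differences were -0.79, -0.80 and -0.68 (SE 0.30), with limma adjusted p of 0.294, 0.27 and 0.358, and -0.41, -0.42 and -0.30 without control library 1. Rpl41, a very short basic peptide, stood at 689 and 368 FPKM in control, and combined library 2, at 398, lay above the lower control. Rpl22, which also binds RNA outside the ribosome, and its paralog Rpl22l1, which Rpl22 is known to repress, both had lower fitted values in each comparison with control. Rpl22 stood at 56.9 and 37.9 FPKM in control and at 30.2 to 38.8 in the others, with differences of -0.48, -0.51 and -0.38. Rpl22l1 stood at 58.3 and 37.9 FPKM in control and at 28.1 to 33.4 in the others, with differences of -0.55, -0.66 and -0.64. Rpl7l1, a paralog of Rpl7, stood at 17.8 and 15.6 FPKM in control and at 12.4 to 14.5 in the others, with differences of -0.33, -0.22 and -0.21 (SE 0.11).

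Many of these genes share sequence with processed pseudogenes, so their reads may be split between entries. Of the 50 tested genes with an annotated transcript, 30 shared more than 50% of their 50-base windows exactly with the pooled transcripts of other genes, and 25 did so with a single other gene. The pooled share had a median of 61.1% and a range of 7.86% to 96.1%, and the other genes include overlapping genes as well as pseudogenes. Summed over 8 libraries, pseudogene entries took a median of 4.10% of the reads of a gene and its pseudogenes over 48 families. In 5 families the share was over 20%: Rpl17 (74.3%), Rpl24 (69.0%), Rpl7a (53.3%), Rpl21 (46.5%) and Rpl23a (23.1%). Rpl17-ps10 stood at 286 FPKM and Rpl17-ps3 at 201 as means over 8 libraries, both above Rpl17 itself at 124. Rpl21-ps15 stood at 134 FPKM, against 24.7 for Rpl21. The sources used here do not say how reads with several matches were treated.

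Rpl21 had the lowest log2 difference from control in the vector group. It stood at 44.4 and 24.0 FPKM in control, 14.7 and 12.4 in vector, 25.6 and 17.7 in AKG and 28.5 and 30.2 in combined libraries. The vector libraries were the lowest of the 8, and both combined libraries lay above control library 2. Its difference from control was -1.22 ± 0.29 (SE) in the vector group, and the combined group exceeded the vector group by 1.07 ± 0.29, with limma adjusted p of 0.294 and 1. With control library 1 left out, Rpl21 differed from control by -0.79, -0.16 and 0.28 in the vector, AKG and combined groups. Rpl21 shared 26.2% of its 50-base windows with other genes, and 18.5% with the closest of them. Its 15 pseudogene entries were matched to it by name. Summed with them, Rpl21 differed from control by -0.79 in the vector, -0.53 in the AKG and -0.28 in the combined group. The combined group then exceeded the vector group by 0.51. Rpl7a, the only gene with a higher fitted value in the vector group, went from 0.05 to -0.29 when summed with its pseudogenes. Rpl17 went from -0.84, -1.45 and -1.45 to -0.67, -0.77 and -0.74. With family sums, chosen as an alternative after seeing the data, all 48 families were below control in each of the 3 comparisons, and 47, 48 and 46 were so without control library 1. Their range in the vector group was -0.84 to -0.29, where the genes alone ranged from -1.26 to 0.05 on the same scale, log2 of library-scaled reads + 1.

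**Figure D4:**
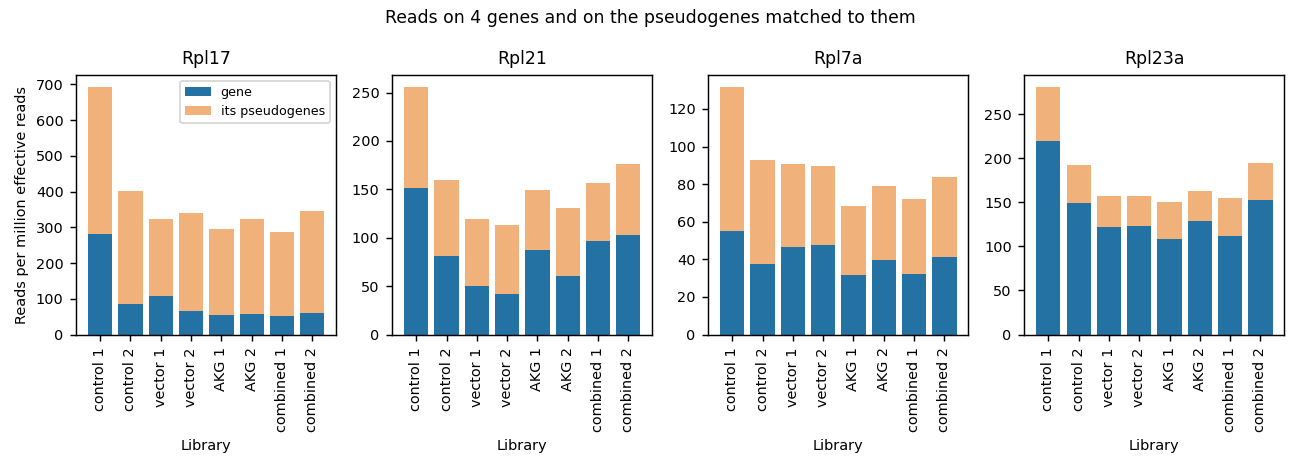
Recovered reads, scaled to library size, in each library on Rpl17, Rpl21, Rpl7a and Rpl23a (blue) and on the pseudogenes matched to them (orange, stacked). Pseudogenes take 74.3%, 46.5%, 53.3% and 23.1% of the family reads, and in each panel control library 1 has the highest total.

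Of the entries with pseudogene names that are annotated as protein-coding, 3 were tested. Rpl9-ps6 stood at 28.7 and 21.5 FPKM in control, 26.8 and 13.0 in vector, 36.7 and 38.1 in AKG and 18.8 and 36.6 in combined libraries, and it had the weakest correlation with the family, 0.21 over 8 libraries. It stood above both controls in both AKG libraries, with a difference of 0.57 ± 0.39 (SE; limma adjusted p 0.429), while Rpl9 itself differed by -0.66. These were 0.77 and -0.30 with control library 1 left out. Of the 50-base windows of Rpl9-ps6, 89.2% also occur in Rpl9, so reads may be split between these entries. Rpl10-ps3 stood at 7.21 and 3.68 FPKM in control and at 1.81 to 3.23 in the others, and its combined difference was -1.14 ± 0.29 (limma adjusted p 0.349). Its transcript shares 92.1% of the 50-base windows of Rpl10.

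The combined group was also set against each single treatment. It exceeded the vector group by a median of 0.11 on the log2 scale, with 43 of 51 genes higher and 0 called by limma (0% of all genes) or voom. Over all tested genes the median was 0.01, with 47.7% lower. With no adjustment, p was under 0.05 for 1 higher gene, Rpl21, against 0.897% of all genes, and for 0 lower genes, against 0.459%. Both combined libraries lay above both vector libraries in 5 genes, against 12.9% of all, and below both in 4, against 11.4%. The combined group exceeded the AKG group by a median of 0.12, with 46 of 51 higher and 0 called by limma (0% of all genes) or voom. Over all tested genes the median was -0.001, with 50.5% lower. The 1 gene with an unadjusted p under 0.05 was Rpl24, at -0.68, against 0.423% of all genes in that direction, and 0 were higher, against 0.714%. Both combined libraries lay above both AKG libraries in 4 genes, against 11.3% of all, and below both in 3, against 11.8%. Both medians were smaller than the pooled spread of the libraries' medians within groups (SD 0.265). Without combined library 2 they were -0.07 and -0.05.

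The interaction asks whether the difference with AKG depended on the virus. It was positive in 48 of 51 genes, with a median of 0.72 and 0 called by limma (0% of all genes) or voom. Over all 13716 tested genes the median was 0.01, and 49.2% had a negative value. The control libraries enter the interaction too, so it is not independent of the comparisons with control. With no adjustment, p was under 0.05 for 15 positive values, against 3.62% of all genes, and for 0 negative ones, against 3.66%. The lowest adjusted p by limma was 0.537. Rpl11 had an interaction of 0.91 ± 0.38 (SE) and Rpl39 one of 1.01 ± 0.38, or 0.51 and 0.67 without control library 1. Without that library the median was 0.42, against 0.01 over all tested genes. The count of 15 was lower without control library 1, combined library 2 or any 1 of the vector or AKG libraries. It was higher without control library 2 or combined library 1. Each of these fits leaves a group with a single library, so its count is not given.

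Other genes of the pathway were read from lists, and 0 were called by limma in the comparisons with control. The 34 small subunit genes had medians of -0.62, -0.63 and -0.51 in the vector, AKG and combined groups, with 33, 33 and 34 lower, or -0.29, -0.28 and -0.17 without control library 1. The 17 other mRNAs known to have a TOP start, among them elongation factors, had medians of -0.39, -0.44 and -0.34, with 16 lower in each, or -0.16, -0.18 and -0.10 without control library 1. Eef1a1, which delivers aminoacyl-tRNA, differed by -0.39, -0.46 and -0.37, while Pabpc1, which binds the poly(A) tail, differed by 0.17, 0.22 and 0.31. The 48 tested proteins of the mitochondrial large subunit had medians of -0.31, -0.29 and -0.24, or -0.19, -0.16 and -0.16 without that library. The 43 tested 60S assembly factors had medians of -0.06, -0.08 and -0.05, or -0.07, -0.06 and -0.06 without that library. Mdn1, the long ATPase that strips factors from the pre-60S particle, was the highest of them at 0.63, 0.57 and 0.53. Without control library 1 the highest assembly factor was at 0.43, 0.37 and 0.33, and 30, 30 and 29 of the 43 were lower. The 10 tested regulators of TOP translation had medians of 0.21, 0.15 and 0.13, with 3, 3 and 2 lower, or 0.13, 0.05 and 0.10 without that library. The lowest of them were at -0.23, -0.25 and -0.19. Among the highest, Mtor differed by 0.59, 0.60 and 0.56 and Larp1, which binds the TOP start, by 0.51, 0.58 and 0.53. Without control library 1 the highest of the 10 regulators was at 0.32, 0.34 and 0.30, and 3, 4 and 3 were lower.

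**Figure D5:**
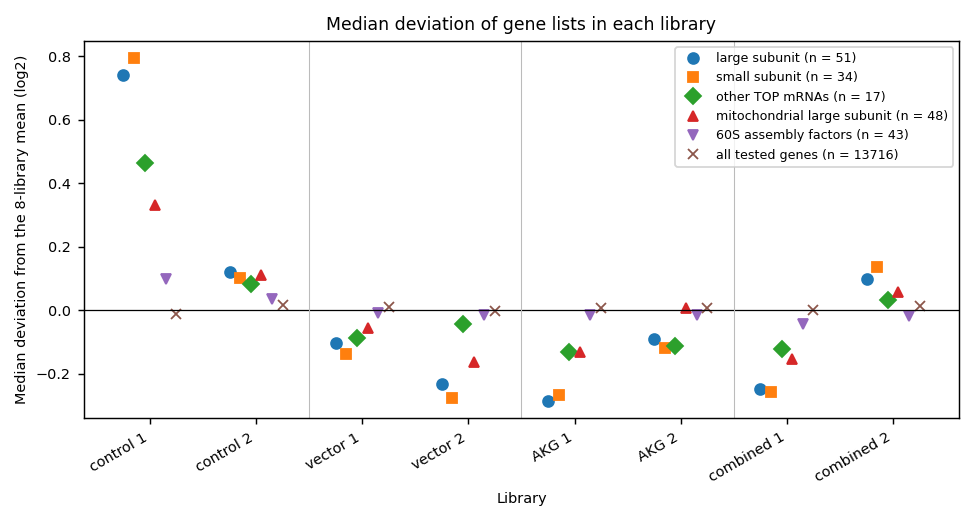
Median deviation of each gene list from its genes' means over 8 libraries, on the log2(FPKM + 1) scale, by library; n in the key is the number of tested genes. The large subunit genes are at 0.74 in control library 1, 0.12 in control library 2 and 0.10 in combined library 2, and between -0.28 and -0.09 in the other 5 libraries.

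By Pearson correlation with the summed level of the family over 8 libraries, the gene outside it with the closest pattern was Rps16, a small subunit protein, at 0.997, or 0.994 without control library 1. It stood at 330 and 189 FPKM in control and at 136 to 178 FPKM in the others. The next were Scp2, Itpa, Rps19 and Fau, and 4 of the 10 closest were small subunit genes. These correlations are descriptions over 8 points that share libraries and scaling.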

How the data were processed

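The authors deposited 1 table of FPKM per gene and library with the gene length, per the file headers, and 0 columns of other samples were found. Per the submitters' processing notes the builds were GRCm38 and mm10; the sources used here name no aligner, counter or strand setting. FPKM times length gave whole reads for 100% of values (within 0.01 read). Genes averaging 1 FPKM or more were tested as log2(FPKM + 1) with limma 3.58.1 in R 4.3.3, with 1 mean per group over all 8 libraries (4 residual degrees of freedom), two-sided, with Benjamini-Hochberg adjustment over 13716 genes at 0.05. A pseudocount of 1 understates differences of low genes. The fit was tested on simulated data. Python 3.11.15 was used for the other steps.

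Exact shared windows of 50 bases were sought in GENCODE M21 transcripts, and promoters came from RefSeq. A pseudogene entry was matched to a gene by its name or by at least 20% of the gene's 50-base windows. The annotation rule for the members and the lists were chosen with earlier results of these data known. Members were named by role, as paralogs, by the highest and lowest differences, levels and p-values, and by pseudogene number; others were named after their values were seen. Medians of lists are descriptions without a test. Alternatives covered filters, pseudocount, scaling, voom, length and GC, only the groups compared, a replicate block and each library left out. Some items on the lists are not reported here.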

Additional observations from a re-analysis of the deposited data

Results flagged for a closer look

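In 4 of the 51 tested genes every AKG library moved one way against control and every combined library the other way against vector. That is near the share over all tested genes, 5.75% (789 of 13716). The 4 genes were picked by this pattern, which sets the sign of their interaction. The test of the difference is the limma interaction, with an adjusted p of 0.537 in each. The interaction was 0.82 for Rpl10, 0.831 for Rpl9, 0.678 for Rpl5 and 0.346 for Rpl7l1. Without control library 1 these were 0.45, 0.46, 0.37 and 0.26. In all 4 the AKG libraries lay below both controls and the combined libraries above both vector libraries.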

How the results depend on the processing

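The replicate numbers were not taken to pair the libraries, since the deviations of same-numbered libraries correlated between -0.32 and 0.34. A block cannot move the fitted medians in this balanced design, which stayed at -0.60, -0.61 and -0.49 against control, 0.11, 0.12 and, for the interaction, 0.72. With the block 0 large subunit genes were called in each comparison. The counts of 41, 40, 15 and 15 at an unadjusted p under 0.05 became 24, 27, 9 and 3 with the block. Their order is vector, AKG and combined against control, then the interaction. In either direction, 1619, 1820, 1445 and 577 of all 13716 genes did so with the block. With quantile normalization they became 21, 24, 9 and 5, beside 2239, 2379, 1910 and 970 of 13716 genes. The interaction counts in both settings were near the share over all genes. With no filter they were 27, 31, 10 and 6 of 56 large subunit genes, beside 2965, 3144, 2630 and 1700 of 30505 genes. With only the groups compared in the fit they were 15, 16 (15 lower) and 4 of 51, beside 1232, 1178 and 723 of 13716. Leaving out each library in turn, the median ranged from -0.89 to -0.30 for vector against control, from -0.93 to -0.30 for AKG and from -0.80 to -0.19 for combined. It ranged from 0.42 to 0.99 for the interaction, from -0.07 to 0.29 for combined against vector and from -0.05 to 0.29 for combined against AKG. Calls ranged from 0 to 43, 0 to 42 and 0 to 38 against control and from 0 to 26 for the interaction, with the highest counts without control library 2. That fit called 3359, 3376, 2916 and 1369 genes in all, and it rests on control library 1 alone, assumed to vary like the other groups. In the other 2 comparisons 0 were called. With quantile normalization the medians against control were -0.40, -0.42 and -0.35. The deposited FPKM already had median-of-ratios factors of 1, so that scaling changed nothing. Without the 8 genes left aside above, chosen after seeing the data, the medians over 43 were -0.60, -0.62 and -0.50.

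Of 1734 values of single genes under an alternative, 13 changed direction. With each library left out in turn, vector against control ranged from -1.70 to 0.013 for Rpl17, -0.55 to 0.29 for Rpl24, -0.21 to 0.31 for Rpl7a and -0.89 to 0.11 for Rpl9-ps6. AKG against control ranged from -0.35 to 0.49 for Rpl24. Combined against control ranged from -0.74 to 0.0069 for Rpl10, -0.58 to 0.28 for Rpl21 and -0.39 to 0.54 for Rpl9-ps6. Rpl24 was at 0.19 in vector with the length and GC trend removed. With gene and pseudogene reads summed, Rpl24 was at -0.37 in AKG and Rpl7a at -0.29 in vector. The cause was not tested. Rpl24 rests on 358 reads in 8 libraries.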
